A study of Mus musculus and synthetic RNA with 74 samples.

Results

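SF3A and SF3B are the protein complexes that complete the U2 snRNP, the particle of the spliceosome that reads the branch point of an intron. Of the 21890 genes listed in at least 1 of the gene tables of mouse embryos, the 9 whose symbols name an SF3A or SF3B subunit were taken. All 9 were listed at both embryonic stages. They are 3 SF3A genes (Sf3a1, Sf3a2 and Sf3a3) and 6 SF3B genes (Sf3b1, Sf3b2, Sf3b3, Sf3b4, Sf3b5 and Sf3b6). The symbols alone decided membership, and no measured value entered it.

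Single embryos from intercrosses of heterozygous Mettl16 mice were sequenced as Smart-seq2 libraries at embryonic day 2.5 (E2.5, morula, 31 embryos) and at E3.5 (blastocyst, 39 embryos). The E2.5 embryos were 5 wild type (WT), 14 heterozygous (HET) and 12 homozygous mutant (KO), and the E3.5 embryos were 18 WT, 9 HET and 12 KO. The mutant allele carries a triple-stop cassette in an early exon of Mettl16, which encodes an RNA m6A methyltransferase. This allele was obtained as 1 line, the mothers of the embryos had been superovulated, and the genotype of each embryo was read from Mettl16 reads in its own library. The lines were made in B6D2F1/J embryos and crossed to C57BL/6JRj, and this breeding and handling is shared by the 3 genotypes. The paper raises that the sequence of chromosome 11, which carries Mettl16, might differ between genotypes through the mixed background. Sf3a1 also lies on chromosome 11.

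The values used here are the authors' means of normalized counts over all embryos of a stage, with WT, HET and KO embryos in the same mean. No value of a single embryo or genotype was analysed, so the means carry no SD or n, no difference between genotypes was tested, and the loss of Mettl16 could not be checked embryo by embryo. The gene means summed to 23557112 at E2.5 and 27145016 at E3.5, and the values used here do not give the depth of each library. The stage labels were set beside marker genes. The trophectoderm keratin genes Krt8 and Krt18 were at means of 651 and 1332 at E2.5 and of 30837 and 35173 at E3.5. Among genes of pluripotent cells, Pou5f1 was lower at E3.5 (9017 and 3527), while Nanog (552 and 4161) and Sox2 (13.6 and 165) were higher. The early embryo gene Tfap2c was at 5278 and 1849. The oocyte genes Zp3, Gdf9 and Bmp15 were at 1587, 108 and 50.7 at E2.5 and at 104, 16.6 and 1.65 at E3.5. The primitive endoderm genes Gata6, Sox17 and Pdgfra were at 3569, 71.45 and 94.3 at E2.5 and at 3676, 174 and 1575 at E3.5. The cumulus cell markers Has2 and Amh were below 1 at both stages, Fshr was not listed at E2.5 and was below 1 at E3.5, and Ptx3 and the liver marker Alb were not listed at either stage. The blood markers Hbb-bs and Ptprc were at 0.347 and 0.316 at E2.5 and at 1.16 and 1.34 at E3.5. Other markers were not at 0, with the blood gene Hba-a1 at 49.6 and 12.0 and the fibroblast gene Col1a1 at 9.35 and 5.72, and their part in the values of the members was not tested.

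In a spliceosome, the U2 snRNA pairs with the branch point sequence near the 3′ end of an intron. SF3B1 and PHF5A hold the branch point adenosine in a pocket of the SF3B complex, and SF3A bridges SF3B to the rest of the U2 snRNP. Introns of the major class need these proteins for their removal. In mouse embryos the early cleavage stages are also the time when transcripts stored in the oocyte give way to those of the embryo.

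The 9 genes are scattered over the mm10 genome and differ in structure. Sf3a1 lies at chr11:4160354-4182541 on the plus strand, with 16 exons. Sf3a2 lies at chr10:80798735-80804922 on the plus strand, with 9 exons. Sf3a3 lies at chr4:124714861-124732423 on the plus strand, with 17 exons. All 3 SF3A genes are thus split by many introns, unlike Sf3b5, which has 1 exon at chr10:13008450-13009183 on the plus strand. Sf3b1 has 25 exons at chr1:54985169-55027478 on the minus strand, Sf3b2 has 21 at chr19:5273921-5295455 on the minus strand, and Sf3b3 has 26 at chr8:110810492-110846803 on the minus strand. Sf3b4 has 6 exons at chr3:96172506-96177564 on the plus strand, and Sf3b6 has 4 at chr12:4817608-4827659 on the plus strand.

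All 9 genes had levels per kb above that of the median listed gene, and their levels spread widely. Levels between genes are given as the mean normalized count per kb of exon. At E2.5 the order from highest to lowest was Sf3b5 (5235), Sf3b4 (3100), Sf3b1 (2714), Sf3b6 (2652), Sf3a3 (2636), Sf3b2 (1508), Sf3b3 (900.0), Sf3a1 (375) and Sf3a2 (107). At E3.5 it was Sf3b5 (7600), Sf3b6 (4529), Sf3b1 (2424), Sf3a3 (2341), Sf3b2 (1643), Sf3b3 (1021), Sf3b4 (583), Sf3a1 (555) and Sf3a2 (28.4). By these values Sf3b5 was highest and Sf3a2 lowest at both stages. The place of Sf3b5 depended on the measure. With summed exon means in place of gene means, Sf3a3 led at E2.5 (22.99% of the summed per-kb level of the members, beside 14.5% for Sf3b5) and Sf3b6 led at E3.5 (25.1% beside 24.3%). With the read length added to exon lengths, Sf3b1 led at E2.5 (19.5% beside 18.1%). Neighbours in these orders cannot be separated, because pooled means have no spread.

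The median gene was at 14.5 per kb at E2.5 (19988 genes) and at 21.4 at E3.5 (20838 genes), and all 9 members lay above it at both stages. By the mean alone, without the length, 9 members lay above the median gene at E2.5 and 8 at E3.5, where Sf3a2 was the exception. The count depended on the genes ranked. Among genes with a mean of at least 10, it was 8 at E2.5 and 8 at E3.5. Per kb, 7 members ranked above 90% of genes at E2.5 and 6 at E3.5. The median member was 182-fold above the median gene at E2.5 and 76.9-fold above it at E3.5. These folds depend on the genes ranked as well. The listed genes include many at low levels, with a median gene mean of 36.4 at E2.5 and 51.6 at E3.5.

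**Figure D1:**
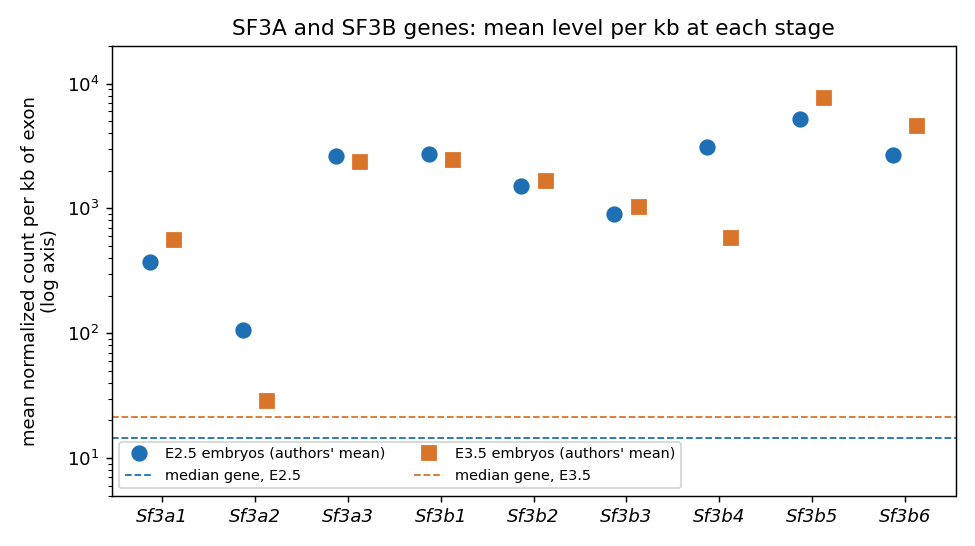
Mean normalized count per kb of exon (log axis) of each SF3A and SF3B gene at E2.5 (circles) and E3.5 (squares), as the authors' means over all embryos of a stage, with no error bars because the means are pooled. Dashed lines mark the median gene, and the points of Sf3a2 lie lowest at both stages, at 107 and 28.4.

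The 3 SF3A subunits, which join as a trimer in the protein complex, had very unequal transcript levels. Sf3a3, whose product bridges SF3A to SF3B, was at a mean of 4476 at E2.5 and 3975 at E3.5. Sf3a1, which holds the other SF3A subunits and carries a ubiquitin-like domain, was at 1844 and 2730. Sf3a2, a zinc-finger protein of the same trimer, was at 179 and 47.6. Per kb, Sf3a3 exceeded Sf3a2 by 24.7-fold at E2.5 and 82.4-fold at E3.5, and it exceeded Sf3a1 by 7.03-fold and 4.22-fold. Sf3a2 ranked above 65.6% of the listed genes by its mean at E2.5 and above 49.3% at E3.5, while Sf3a3 ranked above 95.4% and 94.3%.

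Among the SF3B genes, Sf3b1, the HEAT-repeat scaffold of the complex, had the largest means, 16807 at E2.5 and 15012 at E3.5. It held 38.0% of the summed means of the 9 genes at E2.5 and 34.8% at E3.5. Sf3b2, which contacts the RNA next to the branch point, was at 4876 and 5312. Sf3b3, a WD40-type beta-propeller protein, was at 3869 and 4388. These 3 genes for large subunits kept the same order per kb at both stages, with Sf3b1 1.80-fold and 1.48-fold above Sf3b2, and 3.02-fold and 2.38-fold above Sf3b3. The exon profile of Sf3b1 is uneven, which limits this order. Exons 1 to 10 hold 25.02% of its exon bases but 79.4% (E2.5) and 62.3% (E3.5) of its summed exon means. Exons 11 to 18 together were at 2155 and 842 per kb. Whether the order holds along the whole gene was not tested.

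The small subunits were less uniform. Sf3b5, the smallest subunit, is encoded by a gene with 1 exon and was at means of 3842 and 5578. Sf3b6 (p14), which lies close to the branch point adenosine, was at 2960 and 5054. Sf3b4, an RNA-binding protein with a pair of RRM domains, was at 5396 at E2.5 and at 1015 at E3.5. Per kb, Sf3b4 stood 1.17-fold above Sf3b6 at E2.5 and at 0.129 times Sf3b6 at E3.5.

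The level of Sf3b4 is uncertain because a nearly identical copy of its spliced transcript lies elsewhere in the genome. The spliced exons of each member were aligned to the mm10 genome, and 6 of the 9 members had at least 1 copy of 150 or more bases at 85% or higher identity outside the gene. Only the Sf3b4 copy at chr15:74080006-74081555 (minus strand) reached 95% identity. It matched 1550 aligned bases, 88.8% of the Sf3b4 transcript, at 99.2% identity, and it is annotated as the processed pseudogene Gm7935. The summed exon means of a gene exceeded its gene mean by 1.89-fold for the median gene at E2.5 and 1.25-fold at E3.5. For Sf3b4 the same ratio was 1.11 at E2.5, above 11.3% of genes, and 0.600 at E3.5, above 5.44%. A low ratio was not particular to Sf3b4. Sf3b5, which has 1 exon and for which no such copy was found, was at 0.933 at E2.5, above 6.36% of genes. At E3.5 it was at 0.854, above 9.83%. The part of the pseudogene in the Sf3b4 values was not tested.

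Both stages were normalized separately by the authors, and their means mix different shares of WT, HET and KO embryos. Each library also belongs to a single stage. Stage, genotype mix, normalization, library preparation and RNA quality therefore cannot be told apart. In whole embryos, fewer cells of a type and less RNA per cell cannot be told apart either. With these limits, each gene's share of the summed gene means was compared between stages over the 10002 genes with a mean of at least 100 at 1 or both stages. The median gene had a log2 ratio (E3.5 over E2.5) of 0.40, and the quartiles were -0.56 and 1.45.

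Sf3b4 and Sf3a2 were the members with much smaller shares at E3.5. Sf3b4 had a log2 ratio of -2.61, a 6.12-fold lower share, and 4.62% of genes had a smaller ratio. Sf3a2 had a log2 ratio of -2.12, a 4.33-fold lower share, and 6.86% of genes had a smaller ratio. Over all genes, 17.5% were lower by 2-fold or more and 34.6% were higher by 2-fold or more. Of the 9 members, 2 were lower by that much and 0 were higher, and the count of lower members is close to the background share.

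The other 7 members changed less. Their log2 ratios were 0.36 for Sf3a1, -0.38 for Sf3a3, -0.37 for Sf3b1, -0.08 for Sf3b2, -0.02 for Sf3b3, 0.33 for Sf3b5 and 0.57 for Sf3b6. Only Sf3b6 lay above the median gene. With the means as deposited Sf3b2 and Sf3b3 turned positive, at 0.12 and 0.18, and the median gene was then at 0.60. The median of all 9 members was -0.08, and relative to the median gene it was -0.48. As a share of the summed gene means, Sf3b4 was at 229 ppm at E2.5 and at 37.4 ppm at E3.5.

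**Figure D2:**
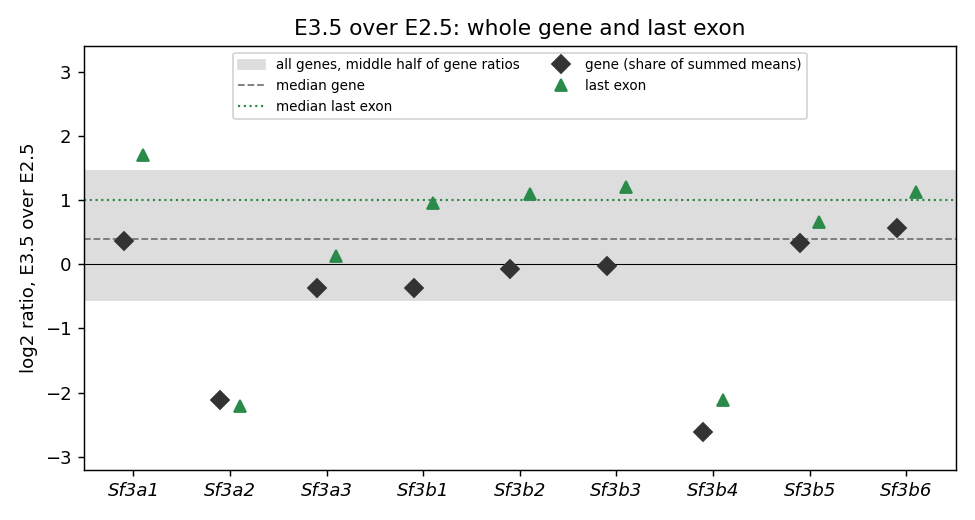
The log2 ratio of E3.5 over E2.5 for the share of each whole gene (diamonds) and for its last exon alone (triangles), with the range between the quartiles of all genes shaded and the median gene and median last exon as lines. Sf3a2 and Sf3b4 lie below -2 by both measures, while the other 7 members lie between -0.38 and 0.57 as genes and between 0.13 and 1.70 as last exons.

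Exon by exon, the stages differed in where along the transcripts the reads lay, which cannot be told apart from a difference between their libraries. The last exon of the median gene stood at 0.699 times its first exon per kb at E2.5 (7798 genes with at least 4 exons) and at 2.33 times at E3.5 (8216 genes). The 7 members with a ratio at both stages moved the same way. Sf3a2, whose summed exon mean at E3.5 was below the minimum of 100, went the other way, from 0.268 to 0.187. Sf3a1 went from 0.411 to 6.59, Sf3b2 from 0.856 to 8.52, and Sf3b3 from 1.19 to 5.66. Sf3a3 went from 0.676 to 1.30, Sf3b4 from 0.481 to 1.57 and Sf3b6 from 0.238 to 0.403. Sf3b1 was lowest, at 0.0250 and 0.126, above only 1.45% and 4.03% of genes. Its last exon has 2324 bases and its first 140, and the read length was not added to exon lengths in these ratios. At E2.5, 1 of 8 members with a ratio had a last exon above its first, beside 37.8% of all genes, and at E3.5 it was 5 of 7, beside 71.7%.

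In Sf3a1, the first exon was at a mean of 128 at E2.5 and 21.7 at E3.5, whereas the last exon was at 667 and 1820. In Sf3b3, exon 8 was at 138 and 11.0, and the last exon, exon 26, was at 1123 and 2180. In Sf3b2, the first exon was at 488 and 88.2 and the last at 1307 and 2352. In these 3 genes a higher last exon stood beside lower 5′ exons, while the log2 ratios of the whole genes lay between -0.08 and 0.36.

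Sf3b4 and Sf3a2 showed a different exon pattern, with lower values along the whole transcript. All 6 exons of Sf3b4 were lower at E3.5 by more than 2-fold in their share of the summed exon means, with log2 ratios from -3.82 in exon 1 to -2.11 in exon 6. Exon 3 of Sf3b4 was at a mean of 2007 at E2.5 and 128 at E3.5. All 9 exons of Sf3a2 were lower as well, with log2 ratios from -3.65 to -1.41. The last exon of Sf3a2 was at 93.0 and 16.9.

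With the last exons alone, the median log2 ratio over 9758 genes was 0.998, and 10.9% of last exons were lower by 2-fold or more while 49.9% were higher. Among the members, 2 last exons were lower (Sf3a2 at -2.21 and Sf3b4 at -2.11) and 4 were higher (Sf3a1 at 1.70, Sf3b2 at 1.10, Sf3b3 at 1.21 and Sf3b6 at 1.13). Only 4.33% of last exons had a ratio below that of Sf3a2, and 4.67% one below that of Sf3b4. The remaining 3 were Sf3a3 at 0.13, Sf3b1 at 0.96 and Sf3b5 at 0.66.

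**Figure D3:**
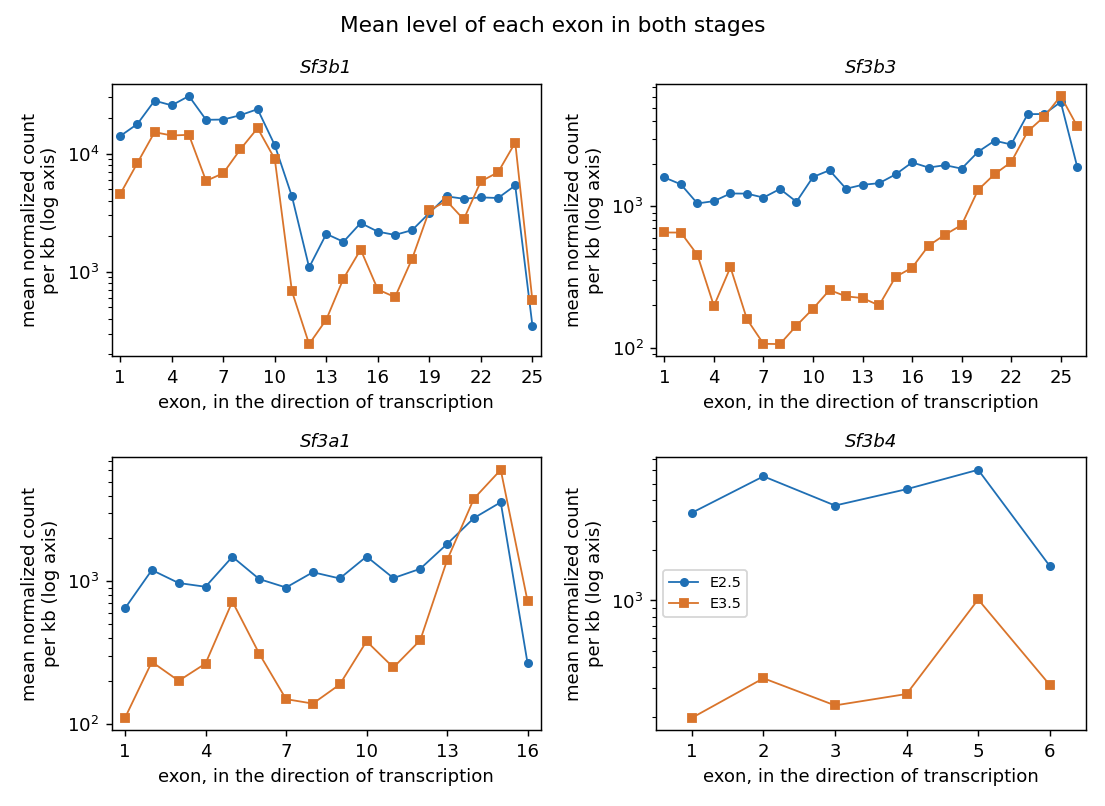
Mean normalized count per kb (log axis) of each exon of Sf3b1, Sf3b3, Sf3a1 and Sf3b4, numbered in the direction of transcription, at E2.5 (circles) and E3.5 (squares). Sf3b1 drops after exon 10 and is higher again from exon 19 to exon 24 at both stages, Sf3b3 and Sf3a1 have lower 5′ exons and a higher last exon at E3.5, and every Sf3b4 exon is lower at E3.5.

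Sf3b1 had a trough within its exon profile. Exons 1 to 10 lay between 11757 and 30617 per kb at E2.5, and exons 11 to 18 between 1088 and 4336, so the ranges did not overlap. At E3.5 the same exons lay between 4535 and 16393 and between 245 and 1541. Exons 1 to 10 together stood 9.25-fold above exons 11 to 18 per kb at E2.5 and 11.6-fold above them at E3.5. Past the trough the level was higher again, with exons 19 to 24 together at 4274 per kb at E2.5 and 6486 at E3.5. At E3.5 exon 24, at 12379, lay within the range of exons 1 to 10. The last exon, exon 25, was at 351 and 572. Exons 1 to 10 hold 25.02% of the exon bases of the gene but 79.4% of its summed exon means at E2.5 and 62.3% at E3.5. These exons of Sf3b1 were singled out after their values were seen.

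The fall from exon 10 to exon 12 of Sf3b1 was 10.8-fold at E2.5 and 36.8-fold at E3.5. For each gene with at least 5 exons and a summed exon mean of at least 1000, the largest such fall over a span of 2 exons was found, with the last exon left out. The median was 1.58-fold over 3754 genes at E2.5 and 1.78-fold over 3758 genes at E3.5, and 95.2% and 97.6% of genes had a smaller fall than Sf3b1. The other members with a value ranged from 1.19-fold (Sf3b4) to 2.34-fold (Sf3b2) at E2.5 and from 2.19-fold (Sf3b2) to 4.84-fold (Sf3a1) at E3.5.

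Shorter annotated transcripts end where the fall begins. In RefSeq for GRCm38, 2 non-coding Sf3b1 models end inside exon 11, and they share its first 36 bases (chr1:55003170-55003205, minus strand). In GENCODE vM21 the transcript Sf3b1-203, which retains intron 4, also ends inside exon 11. Exon 11 is shown because the fall crosses it, with the 36 bases of the short models in capitals and the 66 bases beyond them in lower case.
Sf3b1 exon 11 (mm10 chr1:55003104-55003205, minus strand): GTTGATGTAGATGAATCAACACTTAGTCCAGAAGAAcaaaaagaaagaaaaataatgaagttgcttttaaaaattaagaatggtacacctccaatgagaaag
This exon is rich in adenine, with 48 A in 102 bases (47.1%), beside 28.7% over the other exons of the gene. How much of exons 1 to 10 came from a short transcript, and whether the base composition played a part, was not tested.

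Beside the 9 members, 16 genes of the U2 snRNP and of branch point recognition were listed at both stages, and all 16 were above the median gene per kb at both. Phf5a, which encodes the SF3B subunit that forms the branch point pocket with SF3B1, was at 4273 per kb at E2.5 and 5430 at E3.5, next to Sf3b5 at 5235 and 7600. The highest of the 16 was Snrpa1, which encodes a core protein of the U2 snRNP, at 4463 and 6431. The lowest was Ddx42, an RNA helicase bound to SF3B, at 225 at E2.5, and U2af2, the large subunit of the polypyrimidine tract reader, at 163 at E3.5. The median of the 16 was 560 at E2.5 and 583 at E3.5, beside 2636 and 1643 for the 9 members.

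Between stages the 16 partners had a median log2 ratio of 0.00, beside -0.08 for the members. Of the 16, 1 was lower by 2-fold or more, beside the background of 17.5%. It was Cherp, a U2-associated protein gene, with a log2 ratio of -1.32, and it was named after its value was seen. None of the 16 was higher by 2-fold or more, beside the background of 34.6%, although U2surp came close at 0.98. These counts depended on the scale. Relative to the median gene, 5 partners were lower (Cherp, Puf60, Rbm17, Sf1 and U2af2) and 0 were higher, beside 24.2% and 25.9% of all genes. With summed exon means 2 were lower and 1 was higher, beside 18.6% and 34.0%. With the means as deposited 1 was lower and 2 were higher, beside 14.7% and 39.4%.

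The intron counts of the members were low beside their exon counts. The measure was the summed mean of the introns per kb as a percent of the summed mean of the exons per kb, in genes with a summed exon mean of at least 100. Sf3b5 has no intron. At E2.5 the values were 0.491% for Sf3a1, 0.886% for Sf3a2, 0.0842% for Sf3a3, 0.133% for Sf3b1, 0.135% for Sf3b2, 0.646% for Sf3b3, 0.231% for Sf3b4 and 0.199% for Sf3b6. All 8 lay below the median of 0.939% over 8781 genes and 5 of them ranked above no more than 20% of genes.

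At E3.5 the median over 9266 genes was 1.64%, and the 7 members that met the minimum all lay below it. They were Sf3a1 at 1.31%, Sf3a3 at 0.185%, Sf3b1 at 0.146%, Sf3b2 at 0.478%, Sf3b3 at 1.11%, Sf3b4 at 1.58% and Sf3b6 at 0.135%. Sf3a2 was at 7.36%, but its exons summed to only 55.8 and it was not ranked. Sf3a3 and Sf3b1 were low at both stages, with 4.88% (E2.5) and 7.72% (E3.5) of genes below Sf3a3, and 9.34% and 5.84% below Sf3b1. The Sf3b1 percent is taken over all its exons, and most of its exon counts lie on exons 1 to 10.

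Genes with more exon reads had lower intron values in general. Among the 879 genes with exon sums of at least 9361 at E2.5 the median was 0.235%, and among the 927 genes with at least 6810 at E3.5 it was 0.279%. Of the members in these sets, 3 of 3 lay below the median of the set at E2.5 and 3 of 4 at E3.5. The position of the members below the median of all genes thus stands beside their high exon sums, and the part of the level in it was not tested.

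**Figure D4:**
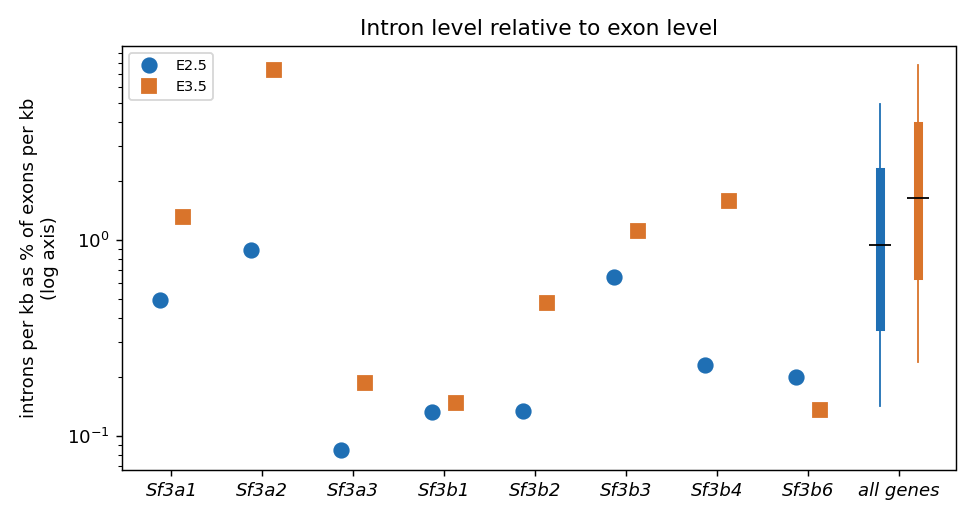
Intron level per kb as a percent of exon level per kb (log axis) for the 8 members with introns at E2.5 (circles) and E3.5 (squares), beside all genes with a summed exon mean of at least 100 (thick bar, between the quartiles; thin line, 10th to 90th percentile; dash, median). All points lie below the all-gene median of their stage except Sf3a2 at E3.5, whose exons summed to only 55.8.

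Single introns of the members were low as well, with a few exceptions. Over the 116 introns, the median was 0.122% of the exon level at E2.5 and 0.245% at E3.5, beside 0.495% and 0.949% over all introns of genes that met the minimum. No member intron was above 10% at E2.5 and 2 were at E3.5 (both in Sf3a2), beside 4.197% and 7.09% of all introns. No intron was above 10% at both stages.

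Among member introns with a mean above 10, the first intron of Sf3b3 was the highest at both stages. At E3.5 this place rests on that limit. Introns 1 and 2 of Sf3a2, at means of 9.12 and 0.514, stood higher, at 11.4% and 15.9%. Intron 1 of Sf3b3 was at a mean of 254 at E2.5 and 264 at E3.5. This was 6.33% and 9.61% of the exon level, above 93.1% and 92.6% of all introns. It held 63.6% of all intron counts of Sf3b3 at E2.5 and 55.9% at E3.5. Next came intron 4 of Sf3b3 at E2.5 (a mean of 22.5, 2.24%) and intron 5 of Sf3a1 at E3.5 (52.8, 3.94%), where intron 4 of Sf3b3 was at 3.38%. Without intron 1, the value of the whole gene was 0.251% at E2.5 and 0.526% at E3.5, in place of 0.646% and 1.11%.

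Intron 1 of Sf3b3 (chr8:110844600-110846674) overlaps other annotated RNA. An exon of Cog4, which is transcribed from the opposite strand, reaches 75 bases into its 5′ end. In GENCODE vM21, 2 Sf3b3 transcripts with retained sequence, Sf3b3-204 and Sf3b3-205, cover 458 and 1356 bases of it. Smart-seq2 reads carry no strand, so reads of Cog4 and of Sf3b3 cannot be told apart where they overlap. Their part in the intron value was not tested.

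Intron 4 was the highest intron of Sf3b1 at both stages, and it stood further from the others at E2.5 than at E3.5. It was at a mean of 175 at E2.5 and 64.3 at E3.5, which was 1.54% and 0.905% of the exon level. It held 58.1% and 31.1% of the intron counts of Sf3b1. The neighbouring introns 3 and 5 were at 0.0446% and 0.0382% at E2.5 and at 0.0337% and 0.0431% at E3.5. The other introns of Sf3b1 reached at most 0.241% at E2.5 (intron 19), whereas at E3.5 intron 24 was at 0.571%, intron 21 at 0.311% and intron 22 at 0.260%. At E3.5 the other introns thus held most of the intron counts. RefSeq and GENCODE place a cassette exon of 56 bases inside intron 4, which GENCODE gives to Sf3b1-208, annotated as a target of nonsense-mediated decay, while Sf3b1-203 keeps the whole intron. The cassette exon was singled out after the values were seen. The cassette exon is shown because it lies in the highest intron of the gene, in capitals between 10 intron bases on either side.
Sf3b1 intron 4 cassette exon (mm10 chr1:55014859-55014934, minus strand): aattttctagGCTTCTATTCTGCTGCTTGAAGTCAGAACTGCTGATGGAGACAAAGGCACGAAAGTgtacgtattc
The bases just before and after it read ag and gt, as at the edges of other exons. The share of the intron counts that came from the cassette exon was not measured.

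**Figure D5:**
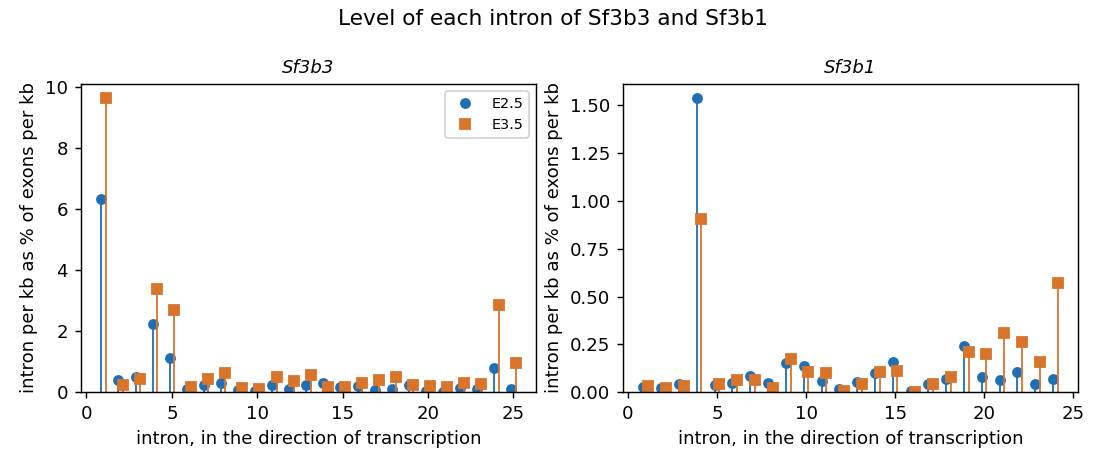
Level of each intron of Sf3b3 and Sf3b1 as a percent of the exon level of the gene, numbered in the direction of transcription, at E2.5 (circles) and E3.5 (squares). Intron 1 of Sf3b3 (6.33% and 9.61%) and intron 4 of Sf3b1 (1.54% and 0.905%) are the highest of their genes at both stages.

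In the other members the highest intron differed between stages or rested on few counts. In Sf3a1 it was intron 1 at E2.5 (a mean of 7.97, 2.16%) and intron 5 at E3.5 (52.8, 3.94%). In Sf3a3 it was intron 12 at E2.5 (41.8, 0.527%) and intron 3 at E3.5 (8.01, 1.56%). In Sf3b2 it was intron 13 at E2.5 (9.98, 0.478%) and intron 16 at E3.5 (8.83, 1.69%). Intron 12 of Sf3a3 was at a mean of 0.937 at E3.5, while intron 5 of Sf3a1 had been at 14.2 at E2.5.

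In Sf3b4 it was intron 2 at E2.5 (9.96, 0.654%) and intron 5 at E3.5 (2.80, 4.71%), and in Sf3b6 it was intron 3 at both stages (2.78 and 7.91, 0.465% and 1.01%). In Sf3a2 the highest introns were intron 6 at E2.5 (a mean of 0.592, 4.198%) and intron 2 at E3.5 (0.514, 15.9%). Both were at less than 1 normalized count, so these percentages rest on very few reads. Intron 1 of Sf3a2, at 5.43 and 9.12, stood at 11.4% of the exon level at E3.5.

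Since SF3A and SF3B act at the branch point, the 3′ ends of their own introns were read from mm10. Of the 116 introns, 115 begin with GT and end with AG, and the exception, intron 23 of Sf3b1, begins with GC. Over all 199018 introns, 98.9% were GT to AG and 0.881% were GC to AG. The motif CTNAC, a common core of mammalian branch points that also occurs by chance, was found on the sense strand in the last 50 bases of 35 member introns (30.2%) and of 28.0% of all introns. The last 50 bases are shown for the highest intron of each member at E3.5, with the terminal AG and any CTNAC in capitals.
Sf3a1 intron 5 (chr11:4173030-4173079, plus): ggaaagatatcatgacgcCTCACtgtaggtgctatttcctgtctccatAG
Sf3a2 intron 2 (chr10:80801406-80801455, plus): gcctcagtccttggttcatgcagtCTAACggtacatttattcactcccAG
Sf3a3 intron 3 (chr4:124715760-124715809, plus): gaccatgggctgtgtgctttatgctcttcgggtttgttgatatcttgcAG
Sf3b1 intron 4 (chr1:55014563-55014612, minus): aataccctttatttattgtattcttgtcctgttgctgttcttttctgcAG
Sf3b2 intron 16 (chr19:5279613-5279662, minus): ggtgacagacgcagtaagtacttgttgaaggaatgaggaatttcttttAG
Sf3b3 intron 1 (chr8:110844600-110844649, minus): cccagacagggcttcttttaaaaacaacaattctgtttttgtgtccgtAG
Sf3b4 intron 5 (chr3:96176929-96176978, plus): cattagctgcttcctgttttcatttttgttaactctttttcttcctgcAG
Sf3b6 intron 3 (chr12:4826964-4827013, plus): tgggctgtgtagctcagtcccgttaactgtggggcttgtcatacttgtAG
Of these 8, the motif lies in Sf3a1 intron 5 and Sf3a2 intron 2. The other 6 lack these letters in this window, which says nothing about where their branch points lie.

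METTL16 methylates RNA hairpins that carry the nonamer TACAGAGAA (in DNA letters), and each member gene was searched for it on the sense strand from its first to its last exon. It occurs 3 times, in Sf3b1 and Sf3b2, each time in an intron and in no exon. Over 161.9 kb of member genes this is 1.85 per 100 kb, beside 2.08 per 100 kb over all genes, and 35.7% of 24469 genes hold it at least once. The 3 windows are shown with the nonamer in capitals.
Sf3b1 intron 1 (chr1:55026382-55026411, minus): aaaggaatgtgTACAGAGAAgtaaagccag
Sf3b1 intron 6 (chr1:55008756-55008785, minus): agggagggctaTACAGAGAAaccctgtctc
Sf3b2 intron 15 (chr19:5281816-5281845, minus): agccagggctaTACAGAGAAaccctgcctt
Intron 1 of Sf3b1 was at 0.0253% of the exon level at E2.5 and at 0.0333% at E3.5, and intron 6 was at 0.0496% and 0.0622%. A match to these letters is a description and not a methylation site.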

How the data were processed

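Per the labels, single-embryo Smart-seq2 reads were trimmed with cutadapt 1.9.1, while the paper states this step only for the in vitro libraries. The authors assigned the embryo reads to RefSeq transcripts (mm10) with Salmon 0.7.2, summed them to genes and normalized them with DESeq2 1.18.1. They also aligned reads with STAR and counted single exons and introns with featureCounts, with introns shortened by 10 bases at each end; other counting settings are not given in the sources used here. The deposited signal used here is the authors' mean normalized count over all embryos of a stage, in 1 table of genes and 1 of exons and introns per stage. The other columns hold the authors' genotype comparisons (log2 fold changes and adjusted p-values) and were not used, and 0 per-sample columns were left out. The in vitro methylation table names no gene and was not used here.

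Exons and introns shared by transcripts were counted once and numbered in the direction of transcription, and gene means were divided by merged exon length. Ranks are the percent of genes below. Sequences came from RefSeq GRCm38.p6 (mm10), copies were searched with blastn 2.17.0, and calculations used Python 3.11.15 and pandas 2.3.3. No test was run, since pooled means have no replicates. The length, ratio and rank functions were tested on simulated data.

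All 9 members are named. Of the 16 U2 partners, the rule named Phf5a and the highest and lowest per kb at a stage. It also named each member's first, last, highest and lowest exon, its highest intron and any intron above 10% at both stages. Values are printed above for only some of these exons. Members, lists and comparisons were chosen with earlier results of these data known, and the stage comparison, the exon falls, the last exons and the genome copies were added after seeing the data.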

Additional observations from a re-analysis of the deposited data

How the results depend on the processing

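An alternative was counted as different where it moved a value by more than 1.5 times. Of 182 alternative values, 144 stayed within that factor, 38 moved and 0 changed sign. Most are percents, ratios or counts that cannot change sign, and the single stage ratios varied were those of Sf3a2 and Sf3b4. Outside these, centring on the median gene turned Sf3a1 and Sf3b5 negative, at -0.04 and -0.07. Deposited means turned Sf3b2 and Sf3b3 positive, at 0.12 and 0.18. The longest transcript gave the main per-kb shares again, so those alternatives tested little. The median intron to exon percent of the 8 members at E3.5 was 0.797 and moved to 0.388 with the median over the introns of each gene, to 0.5025 without the first intron and to 0.512 without introns that overlap a listed exon; at E2.5 no alternative moved it from 0.215 (0.150 to 0.256). The ratio of the highest to the lowest member per kb was 49.0 at E2.5 (35.1 to 49.0 over its alternatives) and 267 at E3.5 (201 to 267). With summed exon means in place of gene means, the share of Sf3b4 in the summed per-kb level of the members went from 16.1% to 10.2% at E2.5 and from 2.81% to 1.31% at E3.5, and that of Sf3b5 went from 27.2% to 14.5% and from 36.7% to 24.3%, so that it no longer led. The 16 U2 partners lower by 2-fold or more numbered 1 in the main comparison and 1, 2 and 5 with deposited means, summed exon means and centring. The count of members lower by 2-fold or more at E3.5 was 2 under each of 4 other scales, which ranged from -1.91 to -2.52 in log2 for Sf3a2 and from -2.11 to -3.05 for Sf3b4. No paired analysis was possible because the values are pooled means and no result comes from a test, and leaving out single embryos could not be run for the same reason. The paper lists the reads of each embryo library, but depth was not used here and pooled means cannot be split by it. Introns at under 1 normalized count, as 7 of 8 in Sf3a2 at E2.5, rest on very few reads.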

Other observations

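Introns of 3 member genes hold annotated small RNA genes. In GENCODE vM21, Snord111 lies in intron 6 of Sf3b3, the small nucleolar RNA genes Gm22193 and Gm22027 in intron 3 of Sf3b3 and intron 4 of Sf3b4, and Mir697 in intron 16 of Sf3a3. Intron 6 of Sf3b3 was at a mean of 3.41 at E2.5 and 3.21 at E3.5, or 0.116% and 0.160% of the exon level. Intron 16 of Sf3a3 was at 5.09 and 11.1. The libraries were made from polyadenylated RNA, so these values say little about the small RNAs themselves. In all, 30 of the 116 introns contain part of an exon of another GENCODE transcript, and in 7 of them it belongs to another gene.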
